A study of Homo sapiens with 6 samples.

Results

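Chemokine, interleukin and cytokine receptor genes were followed by messenger RNA sequencing in Huh7, a cell line established from a human hepatocellular carcinoma. The members were the genes whose symbol follows the CXCL, CCL, CXCR, CCR or IL naming patterns, together with IL6ST, LIF, LIFR and OSMR, which made 138 of the 28265 genes in the count table. Of these, 42 had at least 10 counts in at least 3 libraries and are described one by one, and all 42 were tested. One group of 3 libraries came from cells transduced with a lentiviral vector expressing LHX2, a LIM-homeodomain transcription factor, and the other group of 3 from cells transduced with a control vector. Both were collected 48 h after transduction, so that both groups carried a lentiviral vector. The labels list the control cells as parental under another heading, and they do not name the promoter of the vector. All libraries come from a single cell line, and nothing in the labels says that the replicates were separate cultures, so the p-values cover no more than how these libraries vary, which may be technical.

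Chemokines are small secreted proteins that draw leukocytes along a gradient through G protein-coupled receptors, and CXC and CC chemokines are named for the spacing of their first cysteines. Interleukins act on receptors that often combine a ligand-binding chain with a shared signalling chain. IL6ST, also called gp130, is the shared chain of the IL-6 family, which signals through JAK kinases and STAT3 and drives the acute phase response of hepatocytes. IL-1 and IL-17 receptors signal towards NF-kappaB, and epithelial cells including hepatocytes can answer them with neutrophil-attracting chemokines.

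Total counts ran from 30029313 to 39653681 per library, and the members together took 0.119% to 0.126% of them. LHX2 had 1, 2 and 1 counts in control replicates 1 to 3 and 2535, 2427 and 3126 counts in LHX2 replicates 1 to 3. All 13 hepatocyte markers were measured. Of these 53.8% were called, against 32.5% of all genes tested. The lower ones were 6, among them AHSG (log2 fold change -1.17), APOA2 (-0.355) and HNF4A (-0.26), while TF was higher (0.22) and 6 did not pass. Their summed levels, mostly AFP and ALB, which did not pass, were 50170 to 51610 CPM in the control and 46450 to 50890 CPM in the LHX2 libraries (CPM, the counts scaled to a common normalised library size). None of the 5 B cell markers, 1 of 10 T and NK cell markers (KLRD1, not past the test) and 1 of 8 endothelial markers (PECAM1, lower at 3.03 against 4.02 CPM) passed the filter on low counts. Of the 11 myeloid markers 5 were tested, with LYZ and CD68 higher and FCER1G lower. Their summed level was 472 to 502 CPM in the control and 613 to 679 CPM in the LHX2 libraries, mostly LYZ (472 and 635 CPM on average). The leukocyte marker PTPRC had 0 to 3 counts per library, and CSF1R, CD163 and S100A8 were at 0. Of the 10 stellate cell and fibroblast markers 4 were tested and COL1A2, LUM and PDGFRA were higher, or 75.0% against 16.6% of all genes. The summed levels of the 10 were 40.9 to 44.8 CPM against 72.9 to 79.0 CPM, a rise mostly from COL1A2 (9.26 to 36.8 CPM on average). The untested COL3A1 had 9, 7 and 8 counts in the control against 2, 2 and 4, and PDGFRB had 6, 10 and 6 against 1, 1 and 2, while THY1 was at 0 and ACTA2 and DCN had at most 1 count per library. The part of these marker changes in the member results was not tested.

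With LHX2, 10 members were higher, 8 were lower and 24 did not pass the edgeR quasi-likelihood test, whose threshold was 0.05 after Benjamini-Hochberg adjustment over all genes. The called members were 42.9% of the 42 tested, where 32.5% of all 14533 genes tested were called. By direction 23.8% of the members were higher, against 16.6% of all genes, and 19.0% were lower, against 15.8%. The median log2 fold change was 0.004 over the members and 0.011 over all genes. The groups did not overlap in 22 members, or 52.4%, against 44.9% of all genes tested. Of the 42 members tested, 9 were called and changed at least 1.5-fold, against 958 of the 14533 genes tested (6.59%). CXCL6 alone was called and changed at least 2-fold, or 2.38% of the members tested, against 2.57% of all genes tested. In 12 of the 18 called members the call held under each of the 15 alternatives run. Without control replicate 2 the count of higher members was 6 instead of 10.

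**Figure D1:**
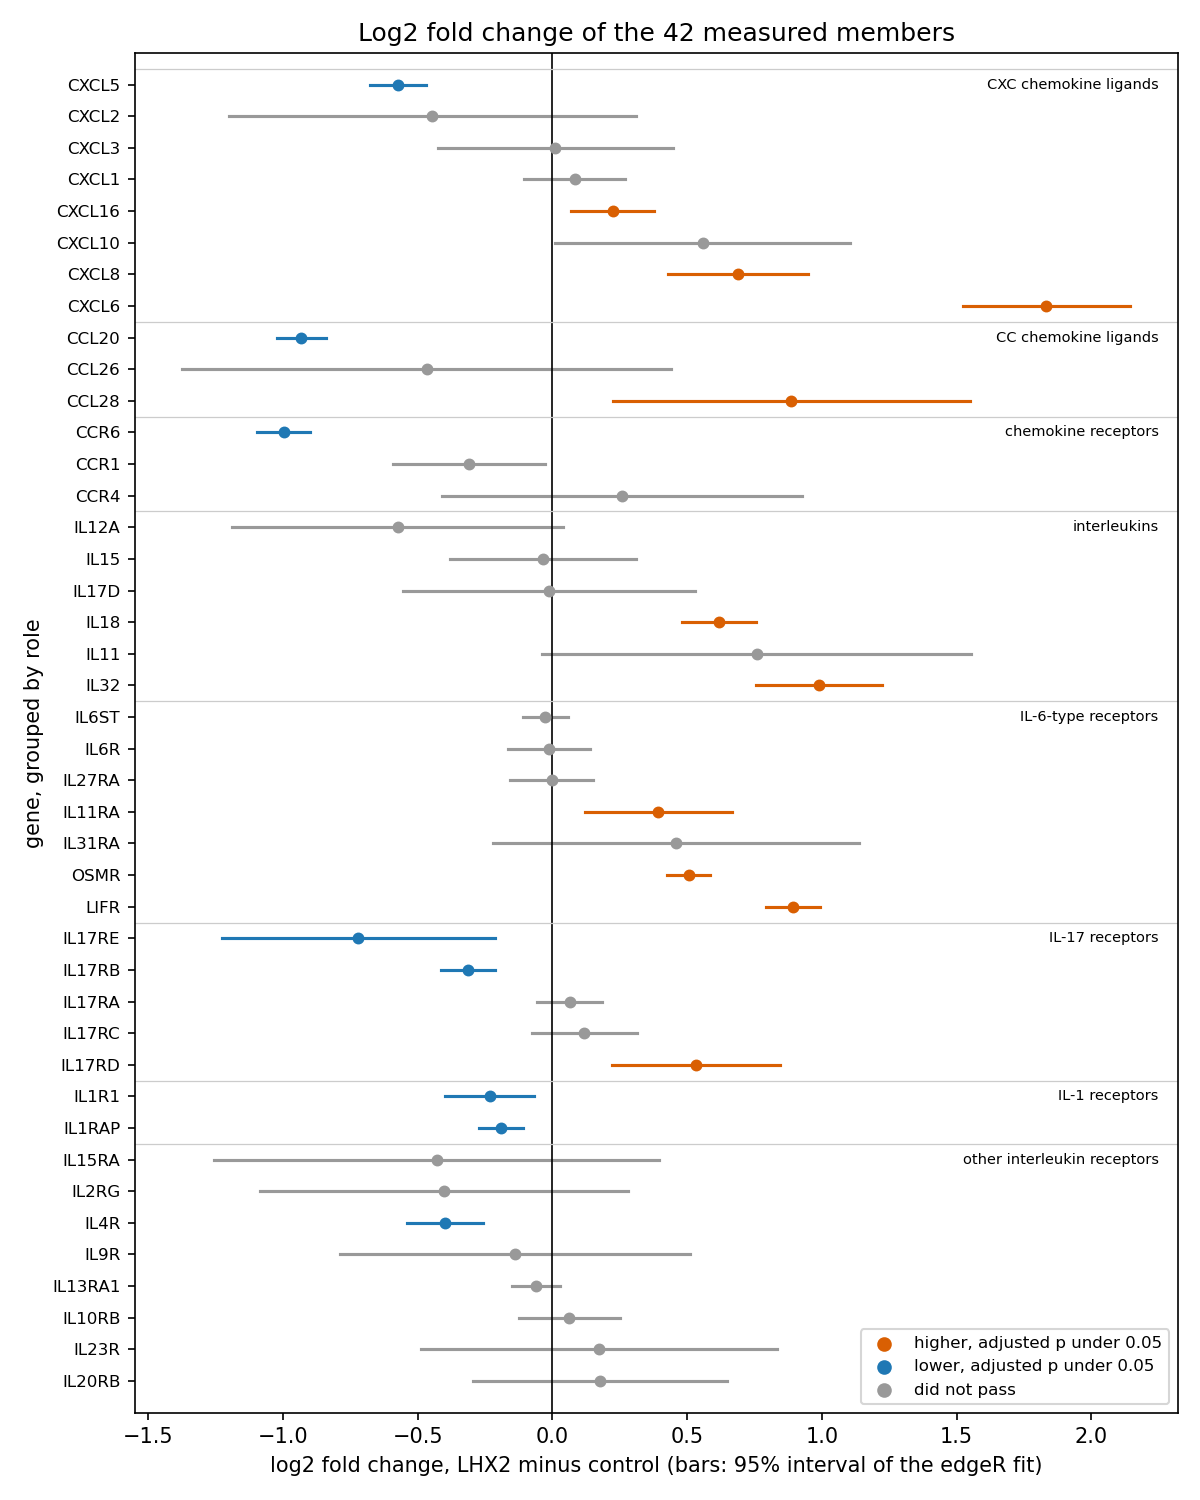
Log2 fold change of LHX2 against control (x axis) for each of the 42 measured members (y axis), grouped by role, with points for the edgeR estimate and bars for its 95% interval. CXCL6 (1.83) lies farthest to the right, and CCR6 (-0.998) and CCL20 (-0.93) lie farthest to the left.

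The CXC chemokines that attract neutrophils moved in different directions, although their genes lie in a cluster on chromosome 4. Sequences before their start sites, with that of CCL20 on chromosome 2, are shown because CXCL6 and CXCL5, which have similar upstream sequence, differed in direction. Each run holds the 250 bases before the annotated RefSeq start, 5′ to 3′ on the strand of the gene, in GRCh38.p14. Capitals mark a match to GGAATTTCC (a kappaB site form), TGANTCA (AP-1), TAATTA (homeodomain core) or TTCNNNGAA (STAT), searched on both strands. CXCL6 is at chr4:73836428-73836677 (plus strand), CXCL5 at chr4:73998678-73998927 (minus strand), CXCL1 at chr4:73869143-73869392 (plus strand), CXCL8 at chr4:73740319-73740568 (plus strand) and CCL20 at chr2:227813592-227813841 (plus strand).
CXCL6: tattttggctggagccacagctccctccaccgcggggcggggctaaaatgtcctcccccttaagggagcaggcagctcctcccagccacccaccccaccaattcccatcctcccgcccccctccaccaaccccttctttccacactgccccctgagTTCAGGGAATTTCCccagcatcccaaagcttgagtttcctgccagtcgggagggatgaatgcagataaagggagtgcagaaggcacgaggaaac
CXCL5: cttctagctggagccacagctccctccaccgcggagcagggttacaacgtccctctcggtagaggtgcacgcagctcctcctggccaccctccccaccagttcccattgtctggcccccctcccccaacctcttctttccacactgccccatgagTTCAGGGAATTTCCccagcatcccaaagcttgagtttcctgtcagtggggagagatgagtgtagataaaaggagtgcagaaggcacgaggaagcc
CXCL1: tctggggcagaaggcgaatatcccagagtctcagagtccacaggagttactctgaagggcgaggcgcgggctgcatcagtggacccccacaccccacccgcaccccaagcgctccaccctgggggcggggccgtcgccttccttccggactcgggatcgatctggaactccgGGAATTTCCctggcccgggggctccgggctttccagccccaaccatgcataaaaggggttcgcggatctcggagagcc
CXCL8: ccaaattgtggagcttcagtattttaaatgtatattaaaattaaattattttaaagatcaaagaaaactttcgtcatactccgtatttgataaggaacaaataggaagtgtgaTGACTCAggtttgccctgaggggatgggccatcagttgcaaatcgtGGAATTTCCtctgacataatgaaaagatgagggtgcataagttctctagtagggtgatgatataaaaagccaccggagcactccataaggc
CCL20: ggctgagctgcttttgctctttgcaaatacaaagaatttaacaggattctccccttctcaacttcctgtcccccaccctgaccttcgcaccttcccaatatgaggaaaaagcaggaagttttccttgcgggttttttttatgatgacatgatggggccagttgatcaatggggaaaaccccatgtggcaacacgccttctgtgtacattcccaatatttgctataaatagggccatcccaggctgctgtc

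CXCL6, also called granulocyte chemotactic protein, lies at positions 73836678 to 73838760 of chromosome 4 and was the called member with the largest change. It had 1.94, 2.02 and 1.66 CPM in the control libraries and 7.09, 5.58 and 7.38 CPM in the LHX2 libraries. Every LHX2 library lay above every control library, at 3.56-fold on average (log2 fold change 1.83 ± 0.145, SE, edgeR adjusted p = 2.29e-07). These levels rest on 54 to 79 counts per control library and 170 to 266 counts per LHX2 library. CXCL8, which encodes interleukin-8 (positions 73740569 to 73743716), had 12.9, 9.24 and 10.35 CPM in the control and 20.01, 14.9 and 17.2 CPM in the LHX2 libraries. The groups did not overlap, and CXCL8 rose 1.61-fold (0.69 ± 0.122, SE, edgeR adjusted p = 0.000514).

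CXCL5, the epithelial neutrophil-activating peptide (positions 73995642 to 73998677), went the other way. Its level was 78.4, 77.3 and 72.5 CPM in the control and 52.7, 48.35 and 52.0 CPM in the LHX2 libraries. The groups were again separate, and CXCL5 was 1.49-fold lower with LHX2 (log2 fold change -0.575 ± 0.049, SE, edgeR adjusted p = 4.65e-07). Per transcript length CXCL5 was the higher of both genes in either group. It fell from 29.97 ± 1.23 to 20.1 ± 0.929 CPM per kb (SD, n = 3), and CXCL6 rose from 1.09 ± 0.108 to 3.89 ± 0.563 CPM per kb.

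CXCL1, the growth-regulated chemokine between CXCL6 and CXCL5, had 9.87, 9.54 and 9.18 CPM in the control and 10.1, 9.29 and 10.8 CPM in the LHX2 libraries. The groups overlapped, and the 95% interval of its log2 fold change ran from -0.105 to 0.27 (edgeR adjusted p = 0.512). CXCL3 (log2 fold change 0.01, interval -0.43 to 0.45) and CXCL2 (-0.45, interval -1.202 to 0.31) were low, with 15 to 54 counts per library, and did not pass. CXCL1 and CXCL2 share 60 overlapping stretches of 50 bases, or 5.73% of those in CXCL1 and 5.13% of those in CXCL2. CXCL2 and CXCL3 share 48, or 4.11% of those in CXCL2 and 3.02% of those in CXCL3. The values of these genes are uncertain for reads from the shared parts. CXCL10, an interferon-induced chemokine for T cells, had 26, 22 and 28 counts in the control and 39, 30 and 35 in the LHX2 libraries. Its groups did not overlap, but it did not pass (0.56 ± 0.255, SE, edgeR adjusted p = 0.111).

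**Figure D2:**
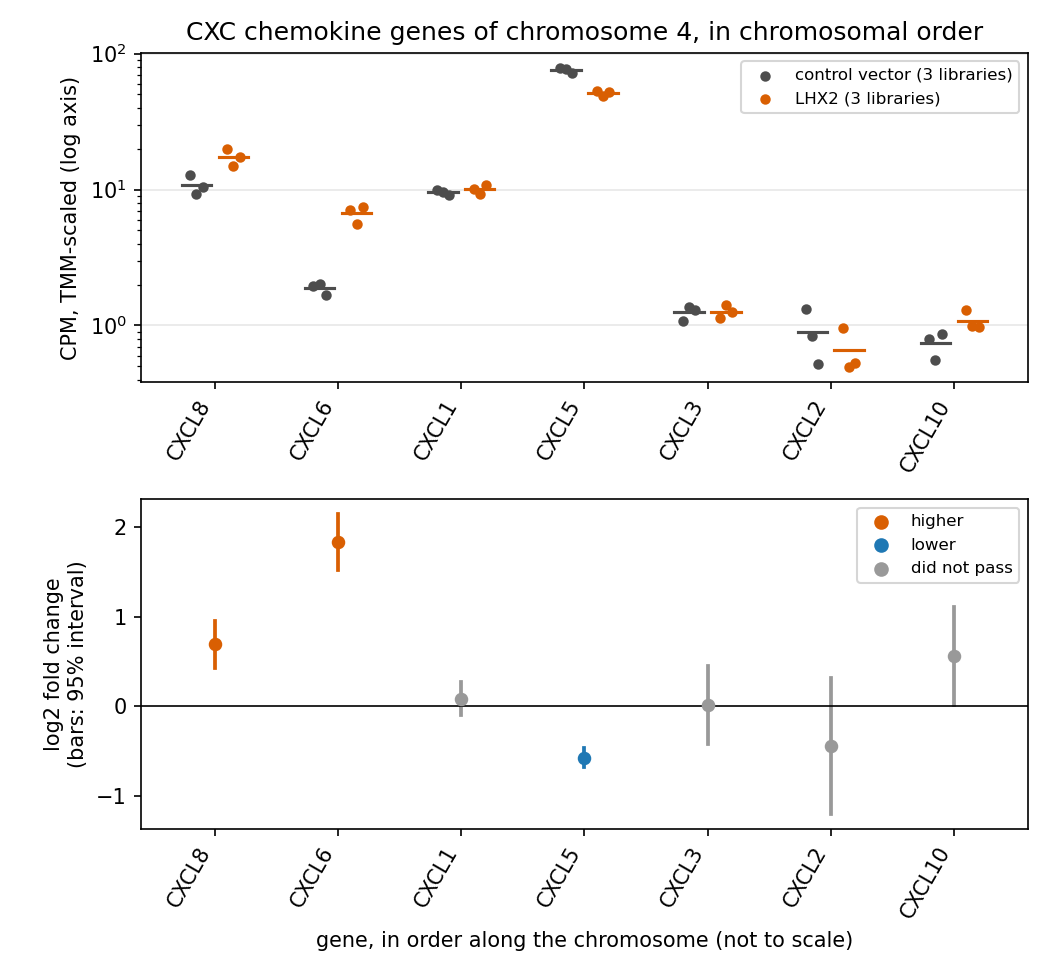
CXC chemokine genes of chromosome 4 in chromosomal order (x axis, not to scale), with CPM in each library on a log axis and the log2 fold change of LHX2 against control with its 95% interval. CXCL8 and CXCL6 were higher with LHX2, CXCL5 was lower, and CXCL1 between CXCL6 and CXCL5 had overlapping groups.

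In the upstream windows printed above, CXCL6 and CXCL5 had 214 identical bases, or 85.6% of the 250, in a global alignment. Every other pair had 119 to 140, with 139 for CXCL6 and CXCL1 and 123 to 133 for the pairs with CCL20. GGAATTTCC stood at nearly the same distance from the start in both, from -89 to -81 in CXCL6 and from -90 to -82 in CXCL5. A TTCNNNGAA match overlapped it in both. The same GGAATTTCC letters were found in CXCL1 (-78 to -70), which did not pass the test, and in CXCL8 (-91 to -83), which rose. They occur in 0.413% of the 35116 windows in the RefSeq table, searched like those of the members over the 250 bases before the start. Of the 42 measured members 36 have 1 to 4 windows there. The letters were found for CXCL1, CXCL2, CXCL3, CXCL5, CXCL6, CXCL8 and CXCL10, so that they stood before higher, lower and uncalled genes.

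TAATTA was found before none of these 36 members and is in 4.35% of all windows. TGANTCA was found before CXCL8 and 4 uncalled members, and is in 6.57% of all windows. TTCNNNGAA, also in 6.57% of all windows, was found before CXCL6 and LIFR, which rose, before CCR6, CXCL5 and IL1R1, which fell, and before 3 uncalled members. A member was counted if any of its windows matched, so these counts and the shares of single windows are not like measures. A match is a description of letters, and no match says only that these letters are not in the window.

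CXCL16, a membrane-anchored chemokine that also binds oxidised lipoproteins, lies outside the cluster on chromosome 17. It had 18.8, 18.2 and 18.3 CPM in the control and 23.4, 20.4 and 20.8 CPM in the LHX2 libraries (log2 fold change 0.22 ± 0.072, SE, edgeR adjusted p = 0.0272). CXCL16 exons overlap those of MED11 on the opposite strand over 3.0% of their bases, and MED11 had 3148 counts over the control and 2864 over the LHX2 libraries, so the value is uncertain. The groups were separate but the difference was small, and the call was lost without LHX2 replicate 1 (0.15, adjusted p = 0.144) and without any 1 of control replicates 1, 2 and 3 (0.21 to 0.24, adjusted p = 0.0537 to 0.094). The CXC chemokine receptors had few counts. CXCR1 had 0 or 1 count per library, CXCR2 2 to 4, CXCR4 4 to 7 and CXCR6 0 to 2, and CXCR3 and CXCR5 had 0. A count of 0 in a single library allows an expected count of up to about 3 in it.

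CCL20 and its receptor CCR6 were both close to 2-fold lower. CCL20, which recruits CCR6-bearing lymphocytes and dendritic cells (chromosome 2, 227813842 to 227817556), had 212.9, 204.4 and 209.9 CPM in the control libraries and 115.1, 109.0 and 104.7 CPM in the LHX2 libraries. No LHX2 library came near the control range, and CCL20 was 1.91-fold lower (log2 fold change -0.93 ± 0.042, SE, edgeR adjusted p = 4.69e-10). CCR6 (chromosome 6, 167111795 to 167139141) had 73.4, 71.25 and 74.9 CPM in the control and 35.7, 36.4 and 37.75 CPM in the LHX2 libraries. It was 1.997-fold lower with separate groups (-0.998 ± 0.045, SE, edgeR adjusted p = 4.69e-10). In bulk RNA, fewer cells that make these transcripts and less RNA per cell cannot be told apart.

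The other measured CC chemokines and receptors had far lower levels than CCL20 and CCR6 in both groups. CCL28, a mucosal chemokine that binds CCR10, had 21, 12 and 19 counts in the control and 33, 22 and 35 in the LHX2 libraries (log2 fold change 0.89 ± 0.309, SE, edgeR adjusted p = 0.0398). Its groups did not overlap, but its call did not hold without LHX2 replicate 1 or 3, without control replicate 2 or 3 or in DESeq2, with adjusted p from 0.0506 to 0.203 and a lowest value of 0.595 without control replicate 2. CCL26, or eotaxin-3, had 7 to 16 counts per library and overlapping groups (interval -1.37 to 0.44). CCR1, a receptor for inflammatory CC chemokines, had 3.23, 3.32 and 3.30 CPM in the control and 2.43, 2.66 and 2.83 CPM in the LHX2 libraries. Its groups did not overlap, but it did not pass (-0.31 ± 0.133, SE, edgeR adjusted p = 0.0894). CCR4, with 14 to 25 counts per library, had overlapping groups (interval -0.41 to 0.93).

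**Figure D3:**
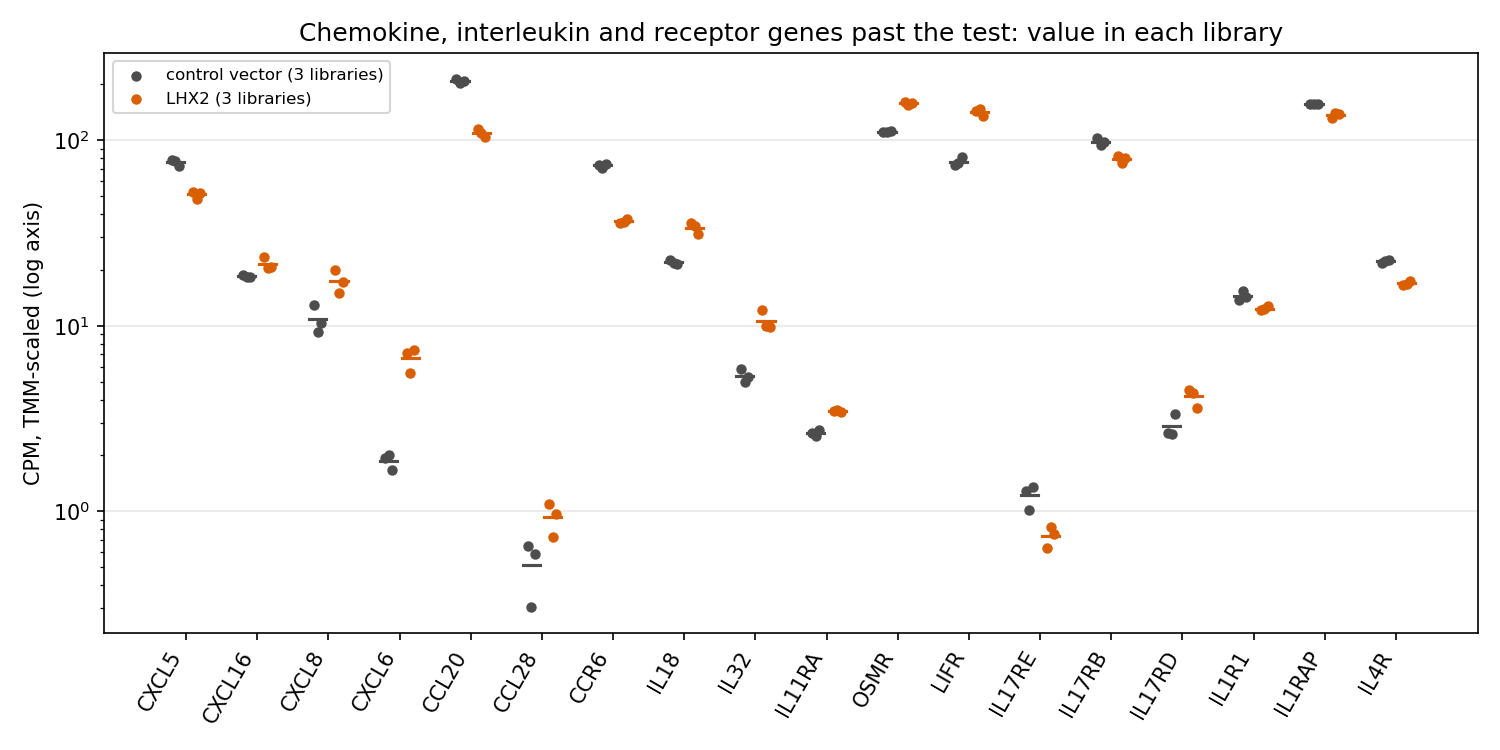
CPM on a log axis in each library for the members past the test, with points for libraries and lines for means of 3. In all 18 the control and LHX2 points do not overlap, but these genes were picked by the test on the same libraries. Of all genes tested, 44.9% do not overlap. CXCL6, CCR6, IL32 and CCL20 have the widest changes.

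Among the 6 measured interleukin genes, IL32 and IL18 were higher and none was called lower. The share called was 33.3%, near the 32.5% of all genes tested. IL32, a cytokine that induces other inflammatory cytokines (chromosome 16, 3065403 to 3069530), had 5.87, 4.98 and 5.27 CPM in the control and 12.2, 9.91 and 9.85 CPM in the LHX2 libraries. The lowest LHX2 library was above the highest control library, and the mean change was 0.99 ± 0.11 on the log2 scale (SE, edgeR adjusted p = 8.26e-06). IL18, an IL-1 family cytokine that caspase-1 cleaves (chromosome 11, 112143260 to 112164094), rose from 22.7, 21.8 and 21.5 CPM to 35.6, 34.5 and 31.3 CPM (0.62 ± 0.065, SE, edgeR adjusted p = 4.46e-06). The groups were separate for IL18 too. Of its receptor chains, IL18R1 had 1 to 9 counts per library and IL18RAP had 0.

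The remaining measured interleukins were low and did not pass. IL11, an IL-6 family cytokine, had 8, 18 and 8 counts in the control and 21, 18 and 14 in the LHX2 libraries (log2 fold change 0.76, interval -0.04 to 1.55). IL12A, a subunit of IL-12, had 23, 33 and 29 counts in the control and 15, 12 and 26 in the LHX2 libraries (-0.57, interval -1.19 to 0.04). IL15, a growth factor for NK and memory T cells, had an interval of -0.38 to 0.31, and IL17D, an IL-17 family cytokine, an interval of -0.55 to 0.53. The groups overlapped in all 4. IL6 itself, below the reporting limit, had 4, 8 and 11 counts in the control and 3, 4 and 3 in the LHX2 libraries, and LIF had 0 to 5 counts per library.

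Of the 7 measured receptors of the IL-6 type 3 rose, none was called lower and 4 did not pass, the shared chain among them, so that 42.9% were called against 32.5% of all genes. Their summed level was 397.5 to 410.4 CPM in the control and 501.7 to 518.4 CPM in the LHX2 libraries. LIFR, the receptor chain for leukaemia inhibitory factor (chromosome 5, 38474668 to 38608403), had 73.3, 75.15 and 81.3 CPM in the control and 142.9, 147.7 and 135.9 CPM in the LHX2 libraries. The groups lay far apart, and LIFR rose 1.86-fold (log2 fold change 0.89 ± 0.048, SE, edgeR adjusted p = 2.93e-09). LIFR exons overlap those of the antisense gene LIFR-AS1 over 5.3% of their bases, but LIFR-AS1 had only 144 counts over the control and 224 over the LHX2 libraries.

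OSMR, the oncostatin M receptor chain and a neighbour of LIFR (chromosome 5, 38846012 to 38945579), had 110.9, 110.6 and 112.8 CPM in the control and 161.5, 154.0 and 158.8 CPM in the LHX2 libraries. It rose 1.42-fold with separate groups (0.505 ± 0.038, SE, edgeR adjusted p = 1.19e-07). Its exons overlap those of RICTOR on the opposite strand over 3.2% of their bases, and RICTOR had 10366 counts over the control and 11019 over the LHX2 libraries. IL6ST, the gp130 chain with which both LIFR and OSMR signal, had 165.5, 168.0 and 169.3 CPM in the control and 165.1, 170.2 and 158.6 CPM in the LHX2 libraries. The groups overlapped, and the 95% interval of the log2 fold change was -0.11 to 0.06 (edgeR adjusted p = 0.654).

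IL6R, the IL-6-binding chain, had 26.9, 24.5 and 27.1 CPM in the control and 27.7, 23.7 and 26.2 CPM in the LHX2 libraries (interval -0.17 to 0.14), and IL27RA, an IL-27 receptor chain, had an interval of -0.16 to 0.15. IL31RA, which pairs with OSMR to bind IL-31, had 25, 32 and 20 counts in the control and 33, 44 and 20 in the LHX2 libraries. Its log2 fold change of 0.46 did not pass, but did so without LHX2 replicate 3 (0.78, adjusted p = 0.0386). IL11RA, the IL-11 receptor chain, had 2.64, 2.55 and 2.74 CPM in the control and 3.46, 3.51 and 3.44 CPM in the LHX2 libraries (0.39 ± 0.128, SE, edgeR adjusted p = 0.0286). Its groups were separate, but the call was lost with any 1 of the 6 libraries left out (0.365 to 0.42, adjusted p = 0.0514 to 0.107) and in DESeq2 (0.39, adjusted p = 0.101). IL11RA shares 7.8% of its exon bases with GALT on the same strand, so its value is uncertain.

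Below these receptors, the JAK-STAT list had 24 tested genes, 7 of which rose and 3 fell, while 14 did not pass, at a median log2 fold change of 0.05. This made 41.7% called, against 32.5% of all genes. SOCS3, a feedback inhibitor that STAT3 induces, had 18, 18 and 24 counts in the control and 37, 28 and 41 in the LHX2 libraries (0.92 ± 0.263, SE, edgeR adjusted p = 0.0147). This call was lost without LHX2 replicate 1 (0.83, adjusted p = 0.055) and without control replicate 1 (0.89, adjusted p = 0.0533) or 2 (0.76, adjusted p = 0.0863). STAT3 averaged 64.3 ± 0.856 CPM without LHX2 against 76.6 ± 3.32 CPM with it (SD, n = 3) and rose by 0.25 ± 0.044 on the log2 scale (SE, edgeR adjusted p = 0.000466). JAK2, a receptor-bound kinase, rose by 0.445 on the log2 scale but did not pass without LHX2 replicate 2 (0.32, adjusted p = 0.0637). STAT2 rose by 0.27, and PIAS2, a SUMO ligase that binds STAT proteins, fell by 0.28. Without control replicate 2 the list held 3 higher genes and 1 lower, without control replicate 1 it held 4 higher, and with the length and GC trend removed it held 5 higher and 5 lower.

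Of the 22 acute phase genes 16 were tested, of which 7 rose, 6 fell and 3 did not pass, at a median log2 fold change of -0.09. This made 81.2% called, against 32.5% of all genes. SERPINA3 (alpha-1-antichymotrypsin, log2 fold change 1.87) and HPX (hemopexin, 1.37) rose. SAA4, a serum amyloid A, rose from 4, 2 and 1 counts to 28, 14 and 16, and HP (haptoglobin) fell from 42, 65 and 51 counts to 26, 11 and 11. Both rest on few counts, while acute phase genes with far more counts were called in both directions.

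Receptors of the IL-17 family also moved in both directions, with 1 higher, 2 lower and 2 not past the test. Thus 3 of the 5 were called, where 32.5% of all genes tested were called, 16.6% higher and 15.8% lower. IL17RB, a chain of the IL-25 receptor (chromosome 3, 53846568 to 53865794), had 103.1, 94.1 and 98.0 CPM in the control and 82.2, 75.6 and 79.85 CPM in the LHX2 libraries. It was 1.24-fold lower with separate groups (log2 fold change -0.31 ± 0.047, SE, edgeR adjusted p = 0.000123). IL17RD, also called SEF, an inhibitor of FGF signalling, had 2.64, 2.60 and 3.36 CPM in the control and 4.53, 4.33 and 3.61 CPM in the LHX2 libraries (0.53 ± 0.146, SE, edgeR adjusted p = 0.0111). Control replicate 3 and LHX2 replicate 3 lay close together, and the call was lost without control replicate 1 (0.48, adjusted p = 0.0518) or 2 (0.46, adjusted p = 0.0615).

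IL17RE, the receptor chain for IL-17C, had 42, 40 and 44 counts in the control and 19, 25 and 27 in the LHX2 libraries (-0.72 ± 0.237, SE, edgeR adjusted p = 0.0299). Its groups were separate, but its call was lost without LHX2 replicate 1 or 3, without control replicate 1 or 3 and in DESeq2 (-0.74 to -0.64, adjusted p = 0.0577 to 0.103). IL17RA, the chain shared by most IL-17 receptors, had 30.9, 29.4 and 29.6 CPM in the control and 32.5, 30.03 and 31.4 CPM in the LHX2 libraries (interval -0.06 to 0.185). IL17RC, its partner for IL-17A and IL-17F, overlapped between the groups as well (interval -0.075 to 0.31). Of their ligands, IL17A and IL25 had 0 counts in each library and IL17B, IL17C and IL17F at most 2.

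Both measured chains of the IL-1 receptor were slightly lower, where 15.8% of all genes tested were called lower. IL1RAP, the accessory chain needed for signalling (chromosome 3, 190514085 to 190659750), had 156.4, 157.6 and 156.1 CPM in the control and 132.3, 140.6 and 138.4 CPM in the LHX2 libraries. The groups were separate, and IL1RAP was 1.14-fold lower (log2 fold change -0.19 ± 0.038, SE, edgeR adjusted p = 0.00129). IL1R1, the IL-1-binding chain, had 13.8, 15.4 and 14.3 CPM in the control and 12.1, 12.2 and 12.7 CPM in the LHX2 libraries (-0.23 ± 0.077, SE, edgeR adjusted p = 0.0305). Its call was lost without LHX2 replicate 1 or 2 or control replicate 2 or 3 (-0.24 to -0.19, adjusted p = 0.0508 to 0.15) and with library totals alone as scaling (-0.20, adjusted p = 0.0609). IL1A had 0 counts in each library and IL1B at most 1.

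In the list of NF-kappaB and IL-1/TLR signalling genes 32 genes were tested, 4 of which rose and 5 fell, while 23 did not pass, at a median log2 fold change of -0.02. The share called was 28.1%, no higher than the 32.5% of all genes. TAB2, an adaptor of the kinase TAK1 (0.32), REL, an NF-kappaB subunit (0.30), and TRAF3, a ubiquitin ligase of receptor complexes (0.27), rose. NFKBIB, an NF-kappaB inhibitor, fell by 0.32 and did not pass without control replicate 2 (-0.24, adjusted p = 0.0701). NFKBIA, the inhibitor that NF-kappaB itself induces, had a log2 fold change of 0.07 ± 0.07 (SE, edgeR adjusted p = 0.473). MYD88, the adaptor of IL-1 and Toll-like receptors, had one of -0.01 ± 0.089 (SE, edgeR adjusted p = 0.964). Without control replicate 1 or 2 the list held 3 lower genes.

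Of the 8 other interleukin receptors measured, IL4R was the only one called, or 12.5% against 32.5% of all genes tested. IL4R, the IL-4-binding chain (chromosome 16, 27313756 to 27364778), had 21.9, 22.5 and 22.6 CPM in the control and 16.5, 16.8 and 17.5 CPM in the LHX2 libraries. It was 1.32-fold lower with separate groups (log2 fold change -0.40 ± 0.065, SE, edgeR adjusted p = 0.000275). IL13RA1, with which IL4R forms a receptor for IL-13, had 61.3, 61.5 and 62.0 CPM in the control and 58.7, 58.2 and 60.2 CPM in the LHX2 libraries. Its groups did not overlap, but the difference was small and did not pass (-0.06, interval -0.15 to 0.03, edgeR adjusted p = 0.28).

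IL10RB, a chain shared by the receptors for IL-10, IL-22 and interferon lambda, had overlapping groups (interval -0.125 to 0.25). IL2RG, the common gamma chain, and IL9R, IL15RA, IL20RB and IL23R, which bind the cytokines in their names or their relatives, had 5 to 95 counts per library and did not pass. Their 95% intervals lay between -1.26 (IL15RA) and 0.83 (IL23R). IL9R has near-identical copies, and IL20RB shares 2.7% of its exon bases with NCK1 on the same strand, so both values are uncertain.

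The members differed widely in level per transcript length. In the control, CCL20 (249 ± 5.09 CPM per kb) was followed by IL17RB (34.9 ± 1.60), CXCL5 (29.97 ± 1.23), IL1RAP (28.9 ± 0.148), OSMR (20.1 ± 0.212), IL6ST (18.5 ± 0.213) and CCR6 (18.2 ± 0.459; SD, n = 3). Of these neighbours, CXCL5 and IL1RAP, and IL6ST and CCR6, did not differ beyond their spread. With LHX2, OSMR (28.6 ± 0.681) and IL17RB (28.07 ± 1.198) came next after CCL20 (131 ± 6.24) and did not differ beyond their spread. LIFR rose from 7.59 ± 0.412 to 14.1 ± 0.588 CPM per kb, and CCR6 fell to 9.11 ± 0.26. These levels use the longest annotated transcript and understate genes that express a shorter form.

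**Figure D4:**
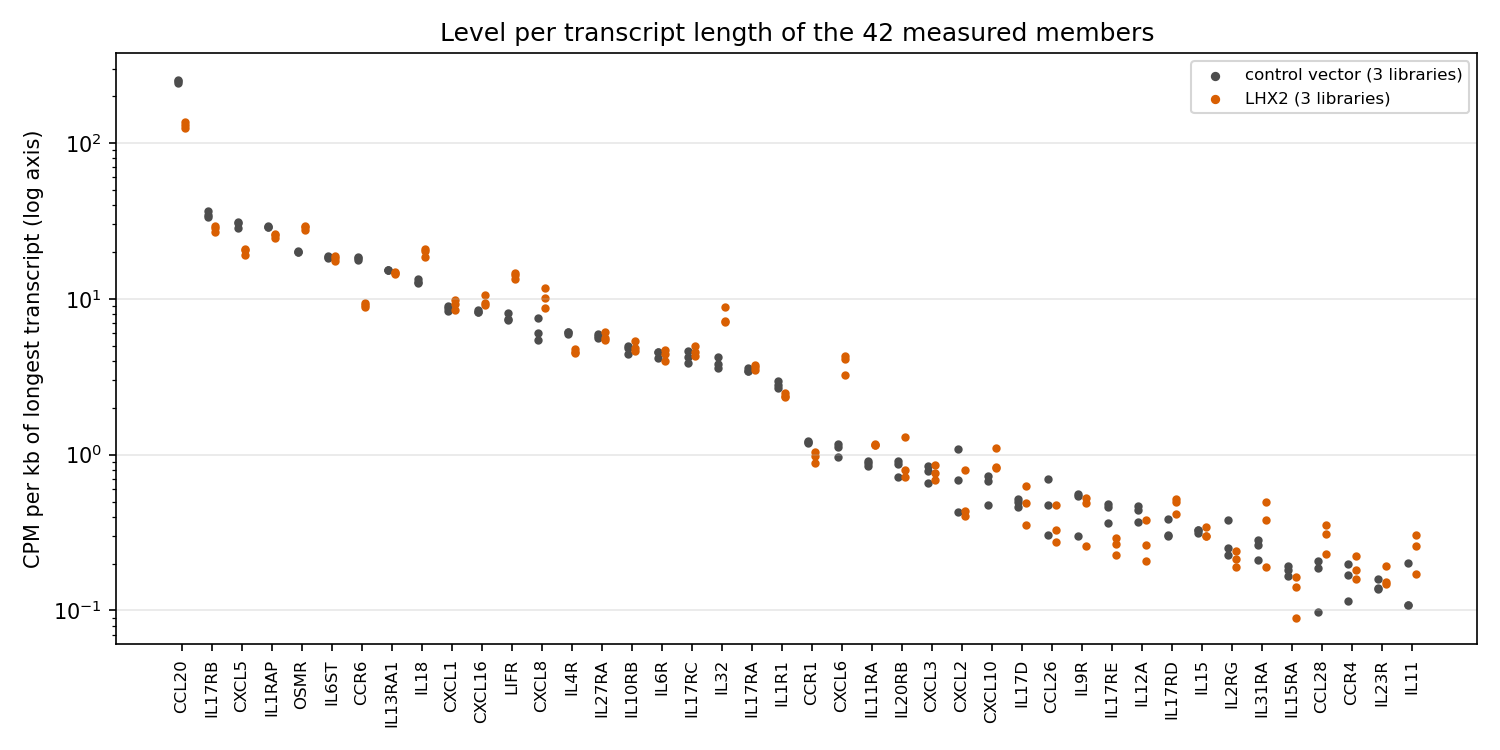
Level per transcript length (CPM per kb of the longest GENCODE transcript, log axis) in each library for the 42 measured members, ordered by the control mean. CCL20 stands above the others at 249 CPM per kb in the control and 131 with LHX2.

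The remaining 96 members did not reach the reporting limit, and none was tested. No count was found in any library for 42 of them. Their summed level was 4.13 to 5.05 CPM in the control and 4.11 to 4.76 CPM in the LHX2 libraries, against 1238 to 1262 and 1178 to 1208 CPM for the 42 measured members. CXCL12, which binds CXCR4, had 6, 13 and 2 counts in the control and 1, 1 and 4 in the LHX2 libraries. CXCL9, an interferon-induced chemokine like CXCL10, had 0, 2 and 3 counts against 4, 3 and 11. The monocyte chemokine CCL2 had 0 counts in each library.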

How the data were processed

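Messenger RNA from 3 control-vector and 3 LHX2-vector libraries was sequenced, and the authors deposited raw counts of reads per gene. The submitters' processing notes name featureCounts 2.0.0, TopHat2 2.1.1, Bowtie2 2.3.5.1 and the build GRCh38. Neither the gene annotation nor the strand setting of the counting is known (not given in the sources used here), so reads of overlapping antisense genes may not be separated. A column named CTRL1-1 was taken as control replicate 1.

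Counts were tested with edgeR 4.0.16 in R 4.3.3 (TMM factors, filterByExpr with a minimum count of 10, quasi-likelihood F-test on all 6 libraries, Benjamini-Hochberg adjustment over the 14533 genes tested). Standard errors are the log2 fold change divided by the square root of F. The script was tested on simulated data. Positions are those of RefSeq GRCh38.p14, and lengths are those of the longest GENCODE 29 transcript. Libraries of a group differed by more than sampling noise. The named genes are LHX2, each member with at least 10 counts in at least 3 libraries, up to 4 called genes with the largest change in each other list, and SOCS3, STAT3, NFKBIA and MYD88; members and other genes with fewer counts were chosen after their values were seen. Members and lists were chosen with earlier results of these data known. The roles and motifs were chosen after the data were seen. Alternatives covered scaling, filtering, a replicate block, DESeq2 1.42.0, limma 3.58.1 (voom), a length and GC trend, and each library left out.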

Additional observations from a re-analysis of the deposited data

How the results depend on the processing

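With 1 library left out, the count of higher members was 6 to 9 and that of lower members 6 to 7, against 10 and 8, with 6 higher without control replicate 2. Of the 18 called members, 12 kept the call under all 15 alternatives, and CCL28, CXCL16, IL11RA, IL17RD, IL17RE and IL1R1 lost it under at least 1. Of the 24 others, 23 were called under none, and IL31RA was called without LHX2 replicate 3. No value changed direction past the test. With library totals alone 59.75% of all called genes were higher, against 51.2%, and with the length and GC trend removed 44.9%. Members with under about 50 counts per library have wide intervals, and differences inside these were not detectable at this depth.

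Control and LHX2 libraries carry the same replicate numbers, but those with the same number did not deviate together (correlations of -0.056, -0.074 and -0.195), so the numbers were not taken as pairs. With a replicate block 8 members were higher and 6 lower, 3768 of all genes were called instead of 4716, and 34 genes of the pathway lists instead of 43. In that fit CXCL16, IL11RA, IL17RE and IL1R1 did not pass.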

Other observations

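Cytokine and receptor genes outside the chemokine and interleukin names were given by a list of 50, of which 27 were tested, 6 rose, none was called lower and 21 did not pass. The share called was 22.2%, against 32.5% of all genes tested. PRLR, the prolactin receptor, which has the fold of the cytokine receptor family, averaged 125 ± 9.93 CPM without LHX2 against 211 ± 19.7 CPM with it (SD, n = 3) and rose by 0.76 ± 0.064 on the log2 scale (SE, edgeR adjusted p = 4.93e-07). CX3CL1, or fractalkine, a chemokine anchored in the membrane like CXCL16, had 19.97 ± 0.695 CPM against 28.2 ± 0.709 CPM (SD, n = 3) and rose by 0.50 ± 0.062 (SE, edgeR adjusted p = 2.26e-05). EPOR, the erythropoietin receptor (log2 fold change 0.41), and CLCF1, an IL-6 family cytokine (0.38), also passed. EPOR lost its call without LHX2 replicate 2 or 3 or any 1 control library (0.26 to 0.53 over the 6 libraries left out in turn). It also lost the call with the replicate block (0.40, adjusted p = 0.0661). CLCF1 lost its call without any 1 LHX2 library or control replicate 2 or 3 (0.30 to 0.52). The CLCF1 call was also lost with the replicate block (0.38, adjusted p = 0.07) and in DESeq2 (0.37, adjusted p = 0.0638). The list held 2 higher genes without LHX2 replicate 2 or control replicate 2, 3 without control replicate 1 or 3, and 3 with the replicate block. Lower calls appeared without LHX2 replicate 2 (1 gene), LHX2 replicate 3 (2) or control replicate 3 (1) and with the length and GC trend removed (2).

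Of 15 tested G protein and arrestin genes that act below chemokine receptors, 4 rose, 1 fell and 10 did not pass. The share called, 33.3%, was near the 32.5% of all genes. RGS2, which shuts off G protein signals, had 44.0 ± 1.36 CPM against 61.6 ± 2.59 CPM (SD, n = 3) and rose by 0.485 ± 0.048 (SE, edgeR adjusted p = 2.51e-06). The G protein subunits GNAQ (log2 fold change 0.31) and GNG5 (0.30) rose, as did RGS3 (0.24), whose call was lost without LHX2 replicate 3 or control replicate 2 or 3 (0.19 to 0.275 over the 6 libraries left out in turn), with the replicate block (0.24, adjusted p = 0.0728) and with the length and GC trend removed (0.15, adjusted p = 0.0882).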
